A study of Homo sapiens with 12 samples.

Results

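The ubiquilin genes *UBQLN1*, *UBQLN2* and *UBQLN4* and the deubiquitinase gene *USP9X* were examined in RNA-seq of cells that overexpressed forms of PEG10, a domesticated retrotransposon protein. They were taken by symbol and are 4 of the 26485 genes in the count table. All 4 passed the filter on low counts, which left 17176 genes for testing. The cells were WT HEK293, a human embryonic kidney line, transfected with 1 μg of plasmid and collected 48 hr later. All plasmids carried a CMV promoter. The 4 groups received LifeAct-Dendra2 (control), full-length PEG10 gag-pol, the shorter gag form that ends before pol (RF1 in the labels), or NC PEG10, the nucleocapsid fragment at the end of gag. Each group had 3 replicates, 1 from each of 3 independent passages of the line. The replicate number in the labels was taken as the passage. All cells kept their own ubiquilin genes, and the RNA came from whole transfected cultures, so a change in some of the cells and a smaller change in all of them cannot be told apart.

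Ubiquilins are shuttle proteins. An N-terminal ubiquitin-like domain docks at the proteasome and a C-terminal ubiquitin-associated domain holds ubiquitinated clients, so that ubiquilins can hand clients over for degradation. UBQLN2 is the member in which mutations cause X-linked amyotrophic lateral sclerosis with frontotemporal dementia, and PEG10 gag-pol is among its clients. USP9X works in the opposite direction, since it removes ubiquitin from its substrates, and it has been described as a stabilizer of PEG10 in trophoblast cells. Both act on PEG10 protein. The values given here are transcript levels, and whether the transcripts of these regulators moved with the PEG10 form supplied is the question the comparisons address.

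In GRCh38, *UBQLN1* (ENSG00000135018) lies on the reverse strand of chromosome 9 from 83659968 to 83707958 and *UBQLN4* (ENSG00000160803) on the reverse strand of chromosome 1 from 156035299 to 156053798. The canonical transcript of each has 11 exons. *UBQLN2* (ENSG00000188021) is a single exon on the forward strand of chromosome X from 56563627 to 56567868. *USP9X* (ENSG00000124486) has 45 exons on the forward strand of chromosome X from 41085445 to 41236579. *UBQLN2* and *USP9X* are therefore both X-linked, and *UBQLN2* is the ubiquilin of the 3 without introns.

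The ubiquilin coding regions resemble each other most between *UBQLN1* and *UBQLN2*, where 80.3% of 1728 aligned bases were identical. The pair *UBQLN2* and *UBQLN4* had 73.4% identity over 1659 bases, and *UBQLN1* and *UBQLN4* had 69.4% over 1657. The longest identical stretches of *UBQLN4* with each of the others are shown because reads shared between family members could move counts from one gene to another.

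Longest run shared by UBQLN2 and UBQLN4: ggaatccagccatgatgcaagagatgatg
Longest run shared by UBQLN1 and UBQLN4: atgcagcagttgat

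These runs are 29 and 14 bases long. Of all 50-base words in the *UBQLN2* transcript, 0% occurred in another annotated gene, so a read that long and without errors belonged to *UBQLN2* alone among annotated transcripts. For *UBQLN1* the share was 1.78%, all in the opposite-strand lncRNA *UBQLN1-AS1*, which overlaps the gene by 365 bases. For *USP9X* it was 0.416%, with 20 words in the Y-linked copy *USP9Y*. *UBQLN4* differed, with 27.2% of its words shared with the pseudogene *UBQLN4P1*, and how reads that map to both were counted is not given in the sources used here.

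For USP9X, the segment around the catalytic cysteine is shown, with the cysteine codon in capitals. This cysteine is residue 1566 of 2554, and the segment lies at chrX:41201110-41201175 on the forward strand of GRCh38.

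USP9X cysteine box: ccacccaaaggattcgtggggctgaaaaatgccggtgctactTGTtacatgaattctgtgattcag

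Total counts ran from 30625725 to 45316749 per library. PEG10 itself checked the transfections: mean levels in CPM (counts relative to the TMM-scaled library size) were 295 ± 62.4 (SD, n = 3) in control, 46630 ± 25180 in gag-pol, 53599 ± 14317 in gag and 3084 ± 739 in NC. Endogenous and plasmid PEG10 cannot be told apart in these counts. The NC insert is only a short part of gag and these CPM are not divided by length, so they do not compare expression between constructs. The HEK293 genes *NEFL* (83.4 to 311 CPM), *INA* (37.0 to 61.8 CPM) and *VIM* (414 to 687 CPM) were present in every library, and *NEFM* was low (1.12 to 3.25 CPM). *ALB*, *PTPRC*, *KRT5* and *GFAP* stayed at or below 1.63 CPM. The muscle gene *MYH7* had 743 counts in gag replicate 2 and at most 12 in the other libraries, so the adjusted p of *UBQLN2* without that library is given beside each of its calls between constructs.

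The 4 genes were well covered. Raw counts per library ran from 4116 to 6406 for *UBQLN1*, from 2345 to 4347 for *UBQLN2*, from 4844 to 7052 for *UBQLN4* and from 7308 to 14216 for *USP9X*. Between the lowest and the highest library, the TMM-scaled level differed 1.34-fold for *UBQLN1*, 1.65-fold for *UBQLN2*, 1.21-fold for *UBQLN4* and 1.57-fold for *USP9X*. *UBQLNL*, another family member, was close to absent, since it had 0 to 10 counts per library, 42 in all, and was not tested.

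To set genes side by side, CPM were divided by the length of all annotated exons (6867 bases for *UBQLN1*, 4242 for *UBQLN2*, 3884 for *UBQLN4* and 14265 for *USP9X*). The level of *UBQLN4* was the highest, at 39.3 ± 2.51 CPM per kilobase (SD over 12 libraries). *UBQLN2* stood at 21.2 ± 3.24, *USP9X* at 20.8 ± 3.35 and *UBQLN1* at 19.9 ± 1.95. With this length, the lowest *UBQLN4* library (35.7) was above the highest library of each of the other 3 genes (at most 25.0), whose ranges overlapped. *UBQLN2* made up 26.2% ± 2.51 of the summed ubiquilin level, *UBQLN1* 24.8% and *UBQLN4* 49.0%. The position of *UBQLN1* depended on the length used. With the canonical transcript alone, a setting added after the data were seen, *UBQLN1* stood at 35.3 ± 3.46, between *UBQLN2* at 21.2 and *UBQLN4* at 42.6. The ranges of *UBQLN1* (30.6 to 41.0) and *UBQLN4* (38.7 to 46.8) then overlapped, so *UBQLN4* no longer stood apart. The share of *UBQLN2* was 21.3% in that setting. Which transcripts the cells used was not measured.

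**Figure D1:**
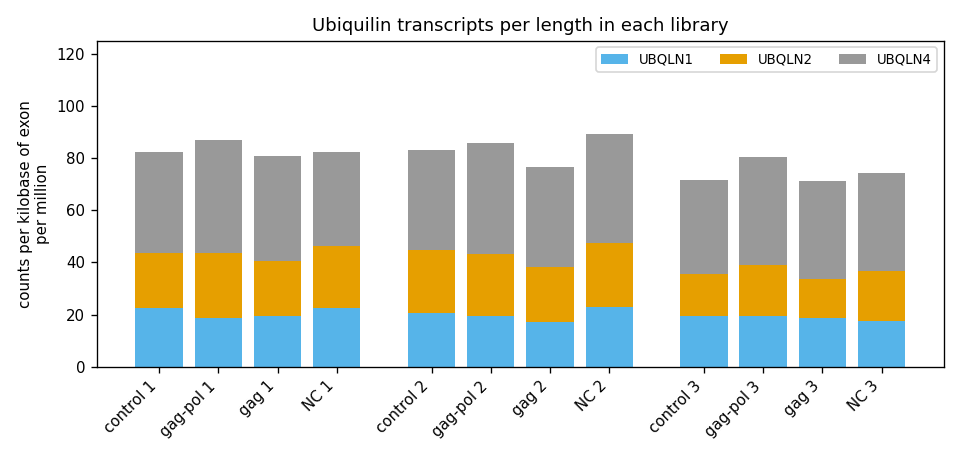
Level of the 3 ubiquilin transcripts in each of the 12 libraries, in CPM per kilobase of exon, stacked by gene and grouped by replicate number. With the length of all annotated exons, *UBQLN4* was the largest segment in every library. The *UBQLN2* segment was shorter in the replicate 3 libraries (at most 19.2 CPM per kilobase), where its mean share was 23.4%.

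No construct moved any of the 4 transcripts past the threshold against control. With edgeR's quasi-likelihood test and Benjamini-Hochberg adjustment, 0 of 4 genes had an adjusted p under 0.05 with gag-pol, gag or NC, and DESeq2 also called 0 of 4 in each. Of all genes, the test called 11.3% for gag-pol, 1.08% for gag and 11.2% for NC. At an unadjusted p under 0.05 there was 1 gene with gag-pol (*UBQLN4*), 1 with gag (*UBQLN1*) and 0 with NC. Ranked by p among the 17176 genes, *UBQLN4* stood at 3521 with gag-pol and *UBQLN1* at 2287 with gag, so many genes lay ahead of both. Counts at this unadjusted cut, here and below, are given without the share of all genes and are not read as results.

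*UBQLN4*, a ubiquilin also linked to the handling of damaged DNA and mislocalized membrane proteins, measured 150.5, 148.5 and 138.7 CPM in control replicates 1, 2 and 3. With gag-pol it measured 167.6, 165.3 and 161.3 CPM. All 3 gag-pol libraries were above all 3 control libraries, as was the case in either direction for 13.5% of all genes. The log2 fold change was 0.18 (SE 0.073, 95% confidence interval 0.03 to 0.33, unadjusted p = 0.0242 and adjusted p = 0.118 in edgeR), which does not pass the threshold. Over the other settings it stayed between 0.15 and 0.22 with adjusted p from 0.0798 to 0.644.

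With gag, *UBQLN4* measured 155.8, 148.7 and 145.7 CPM, and with NC 139.4, 161.7 and 146.4 CPM. Both groups overlapped control, with log2 fold changes of 0.04 (SE 0.073) and 0.03 (SE 0.073). The gag-pol libraries also lay above all gag libraries, a pattern shared by 12.7% of genes in that comparison. The log2 difference between gag-pol and gag was 0.13 (SE 0.073, adjusted p = 0.27 in edgeR) and that between NC and gag-pol was -0.14 (SE 0.073, adjusted p = 0.528 in edgeR).

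*UBQLN1*, a broadly expressed ubiquilin, measured 155.1, 141.1 and 133.6 CPM in control replicates 1 to 3 and 133.1, 118.2 and 127.5 CPM with gag. The 2 groups did not overlap, as was the case for 7.11% of all genes. The log2 fold change was -0.18 (SE 0.086, 95% confidence interval -0.36 to -0.0020, unadjusted p = 0.0477 and adjusted p = 0.358 in edgeR), short of the threshold. With gag-pol it measured 128.2, 134.6 and 134.5 CPM, a log2 fold change of -0.11 (SE 0.086, adjusted p = 0.441 in edgeR).

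The NC libraries were the most spread for *UBQLN1*, at 155.3, 158.6 and 120.7 CPM. Replicates 1 and 2 were above every gag library and replicate 3 was below 2 of them. The log2 difference between NC and control was 0.01 (SE 0.086) and that between NC and gag was 0.19 (SE 0.086, unadjusted p = 0.0345 and adjusted p = 0.127 in edgeR). Without NC replicate 3 the latter became 0.31 with an adjusted p of 0.0252 in edgeR, and without all replicate 3 libraries 0.33 with 0.00681, so the outcome for *UBQLN1* in this comparison was decided by that library.

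*USP9X* measured 225.1, 335.7 and 301.3 CPM in control, 233.4, 351.2 and 297.2 CPM with gag-pol, 235.1, 332.0 and 352.5 CPM with gag and 265.8, 281.6 and 343.6 CPM with NC. Replicate 1 was the lowest library in all 4 groups, and the groups overlapped throughout. Against control, the log2 fold change was 0.03 for gag-pol, 0.09 for gag and 0.06 for NC (each SE 0.091). The 95% confidence intervals ran from -0.15 to 0.22, from -0.10 to 0.28 and from -0.12 to 0.25, and in folds these bounds lay between 0.899 and 1.21. Of the 4 genes, *USP9X* had the smallest share of its variance on the log2 scale between constructs, 2.10%, against a median of 27.9% over all genes tested.

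**Figure D2:**
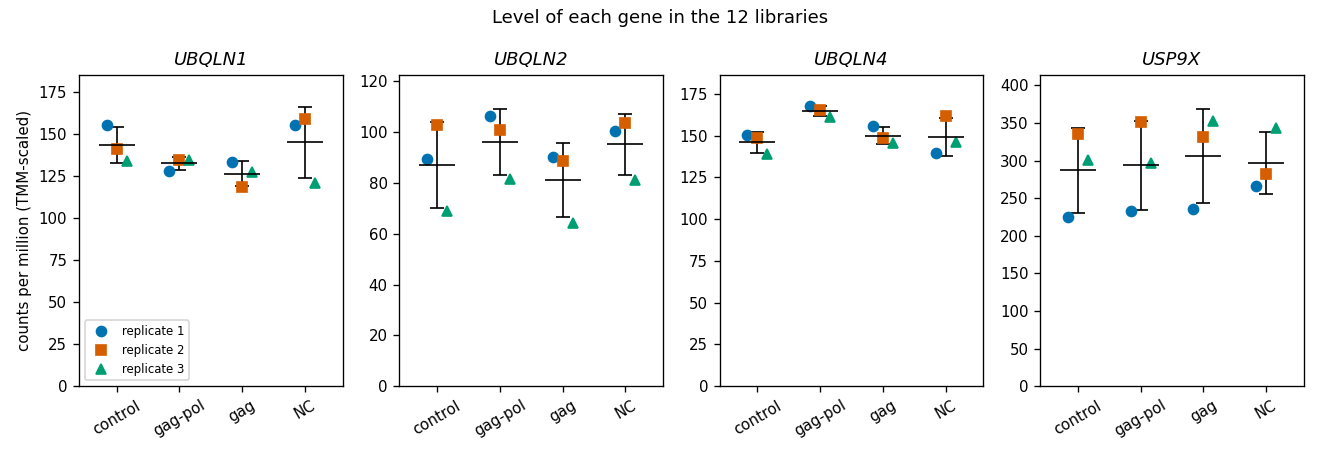
TMM-scaled CPM of each gene in the 12 libraries, by construct and with the replicate number shown by colour and shape (bars, mean ± SD, n = 3). Replicate 3 is the lowest *UBQLN2* library and replicate 1 the lowest *USP9X* library in every group.

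*UBQLN2* was the 1 gene of the 4 called in a comparison between constructs in the fit of all 12 libraries. Whether it differed more between constructs than the other 3 genes was not tested. The level of *UBQLN2* was higher with gag-pol and with NC than with gag, by 1.19-fold and 1.18-fold, while none of the 3 constructs differed from control past the threshold. Tested over the 3 constructs and control together, *UBQLN2* had an adjusted p of 0.0465 in edgeR (DESeq2 0.0175), where 20.6% of all genes were called. That call was lost in 11 of 15 leave-outs of a library or replicate number (adjusted p up to 0.294 in edgeR, and 0.128 without gag replicate 2), without robust estimation (0.0563) and without the replicate term (0.885). The other 3 genes had adjusted p values of 0.229 to 0.848 in that test.

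In control, *UBQLN2* measured 89.4, 102.6 and 69.1 CPM in replicates 1, 2 and 3. It measured 106.2, 100.8 and 81.6 CPM with gag-pol and 100.4, 103.7 and 81.3 CPM with NC. With gag it measured 90.2, 88.7 and 64.2 CPM. The ranges of all groups overlapped, and replicate 3 was low in each. Within each replicate number, gag-pol was above gag in 3 of 3, by 0.24, 0.18 and 0.35 on the log2 scale, and NC was above gag in 3 of 3, by 0.15, 0.22 and 0.34.

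The log2 difference between gag-pol and gag was 0.26 (SE 0.077, 95% confidence interval 0.10 to 0.42), with an adjusted p of 0.0485 in edgeR, and 1 of the 4 genes was called where 6.46% of all genes were (3.03% higher). That between NC and gag was 0.24 (SE 0.077, 95% confidence interval 0.08 to 0.40), with an adjusted p of 0.0362 in edgeR, and 1 of 4 was called where 16.9% of all genes were (8.76% higher). Both comparisons use the same gag libraries. The fold changes against control were 0.15 for gag-pol (SE 0.077, adjusted p = 0.203 in edgeR), 0.14 for NC (SE 0.077, adjusted p = 0.264) and -0.10 for gag (SE 0.077, adjusted p = 0.614). NC and gag-pol differed by -0.02 (SE 0.077, adjusted p = 0.969 in edgeR), with an interval from -0.18 to 0.14. No gene of the 4 had NC libraries that lay wholly apart from those of control, gag or gag-pol, where 9.5%, 14.4% and 6.92% of all genes did. In the comparison of NC with gag-pol, 0 of 4 genes were called by edgeR and by DESeq2, with 0 of 4 at an unadjusted p under 0.05, where 0.0873% of all genes were called.

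Both calls were near the threshold. The one between gag-pol and gag was lost without control replicate 2 (adjusted p = 0.056 in edgeR), NC replicate 1 (0.0629), gag-pol replicate 1 (0.166) or 3 (0.222), or gag replicate 1 (0.117), 2 (0.143) or 3 (0.172), with log2 differences of 0.22 to 0.29. The one between NC and gag was lost without gag replicate 1 (adjusted p = 0.079 in edgeR), 2 (0.115) or 3 (0.144), or NC replicate 1 (0.0831), 2 (0.0554) or 3 (0.116), with log2 differences of 0.21 to 0.28. Each whole replicate number left out also ended both calls, with adjusted p of 0.0917 to 0.266 between gag-pol and gag and 0.0974 to 0.165 between NC and gag, so that 5 and 6 of 15 leave-outs kept them. The difference kept its sign in every one of these. In the fit without a term for replicate number, the differences were 0.25 and 0.23, with adjusted p of 0.805 and 0.624 in edgeR.

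The pairing of gag-pol with NC and of gag with control was taken from earlier results of these data. Its p-values are therefore a description and lend the *UBQLN2* calls above no separate support. The mean of gag-pol and NC exceeded the mean of gag and control by 0.20 on the log2 scale (SE 0.055, 95% confidence interval 0.08 to 0.31), or 1.15-fold, with an adjusted p of 0.0115 in edgeR. *UBQLN2* was the 1 gene of 4 called, where 24.7% of all genes were called and 13.1% were called higher. It was called on leaving out each of the 12 libraries in turn (0.18 to 0.23, adjusted p 0.00842 to 0.038 in edgeR), including 0.20 and 0.0292 without gag replicate 2. It was lost without all replicate 1 libraries (0.20, adjusted p = 0.0916), without all replicate 3 libraries (0.15, adjusted p = 0.0929) and without the replicate term (0.19, adjusted p = 0.46). The median absolute difference of all genes was 0.16 in this comparison and 0.29 among those called, so that *UBQLN2* was among the smaller changes called.

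**Figure D3:**
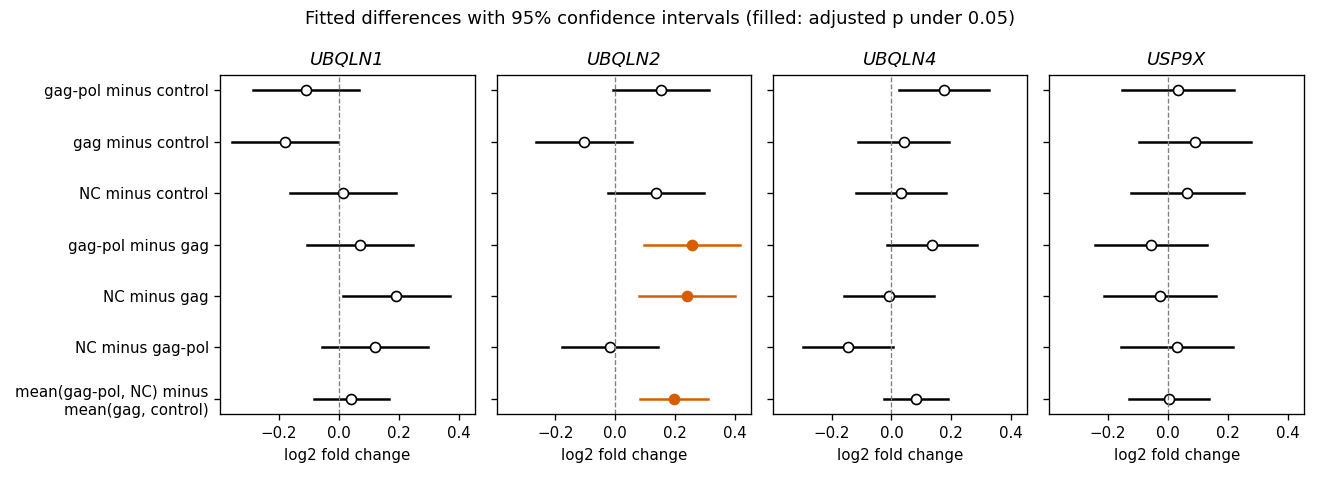
Fitted log2 fold changes of the 4 genes in 7 comparisons with 95% confidence intervals (filled points, adjusted p under 0.05 in edgeR). The filled points are *UBQLN2* in gag-pol against gag, in NC against gag and in the mean of gag-pol and NC against the mean of gag and control, at 0.26, 0.24 and 0.20.

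**Figure D4:**
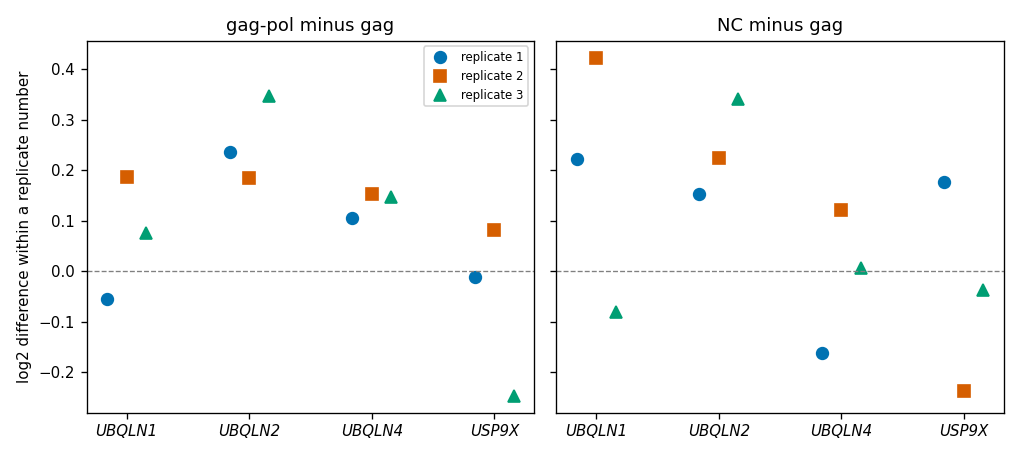
Log2 difference from gag within each replicate number for gag-pol (left) and NC (right). *UBQLN2* is above 0 in all 3 replicate numbers in both panels (0.15 to 0.35), as is *UBQLN4* with gag-pol (0.11 to 0.15), while *USP9X* lies on both sides of 0.

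Larger than any difference between constructs were those between replicate numbers, for *UBQLN2* and *USP9X* but not for the other ubiquilins. In edgeR, the adjusted p for replicate number was 3.38e-05 for *UBQLN2*, 0.000102 for *USP9X*, 0.251 for *UBQLN1* and 0.542 for *UBQLN4*. With 2 of 4 genes called, the share was close to the 52.8% of all genes. Replicate number accounted for 72.5% of the log2 variance of *UBQLN2* and 78.3% of that of *USP9X*, against a median of 42.3% over all genes, and for 19.6% and 12.9% of that of *UBQLN1* and *UBQLN4*. For *UBQLN4* the larger share, 58.8%, lay between constructs. The share between constructs was 35.2% for *UBQLN1*, 21.8% for *UBQLN2* and 2.10% for *USP9X*, against a median of 27.9% over all genes.

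The 2 X-linked genes were set apart in different replicates. *UBQLN2* averaged 96.5 ± 8.17 CPM in replicate 1 and 99.0 ± 6.93 in replicate 2 (SD, n = 4 constructs), and 74.1 ± 8.78 in replicate 3. All 4 replicate 3 libraries were below all libraries of replicate 1 and of replicate 2, as was the case in either direction for 27.8% and 15.5% of genes. The log2 difference of replicate 3 from replicate 1 was -0.39 (SE 0.067, adjusted p = 8.38e-05 in edgeR, 41.6% of all genes called and 21% lower) and that from replicate 2 was -0.42 (SE 0.067, adjusted p = 8.23e-05 in edgeR, 27.1% called and 14.1% lower), while replicates 2 and 1 differed by 0.04 (adjusted p = 0.71).

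*USP9X* averaged 239.8 ± 17.8 CPM in replicate 1, 325.1 ± 30.2 in replicate 2 and 323.7 ± 28.5 in replicate 3. The highest replicate 1 library (265.8 CPM) was below the lowest of replicates 2 and 3 (281.6 and 297.2 CPM), and 19.8% of all genes did not overlap between replicates 1 and 2. The log2 differences from replicate 1 were 0.44 for replicate 2 (SE 0.079, adjusted p = 0.000255 in edgeR, 30.5% of all genes called and 15.9% higher) and 0.43 for replicate 3 (SE 0.079, adjusted p = 0.00015 in edgeR, 20.6% of all genes called higher). Replicates 3 and 2 differed by -0.01 (adjusted p = 0.942). Passage, harvest date and handling on the day cannot be told apart in these numbers.

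*UBQLN2* also set the share of the family that differed most by replicate number. On the per-kilobase scale it held 27.4%, 27.9% and 23.4% of the ubiquilin level in replicates 1, 2 and 3. By construct it held 25.8% ± 3.19 in control, 26.8% ± 2.55 in gag-pol, 25.0% ± 3.28 in gag and 27.3% ± 1.52 in NC (SD, n = 3). These shares by construct overlapped.

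Across the 12 libraries the 4 genes shared little. Pearson's r of log2 CPM, given as a description, was 0.52 for *UBQLN2* and *UBQLN4*, 0.41 for *UBQLN1* and *UBQLN2* and -0.46 for *UBQLN1* and *USP9X*, and between -0.35 and -0.00090 for the other pairs. After the mean of each replicate number was subtracted, it ran from -0.38 to 0.45.

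The genes most like each of the 4, by Pearson's r of log2 CPM over the 12 libraries after subtracting the replicate means, were found among 13418 genes. For *UBQLN1* they were *UBE2E2*, a ubiquitin-conjugating enzyme, *SKAP2* and *RAB10*, a vesicle GTPase (r = 0.95 each). For *UBQLN2* they were *FAM181B* (0.97), *TMEM107* (0.96) and *EXD2* (0.95). For *UBQLN4* they were *AGFG1* (0.96), *BCAR3* (0.95) and *DMRTA2* (0.94). For *USP9X* they were *CUX1* (0.97), *HUWE1* (0.93), an X-linked ubiquitin ligase, and *TRRAP* (0.93). The points share their libraries and sequencing depth, and these are the highest of many values.

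Among the ubiquilin partners, the genes called against control were all lower. These 14 genes include the BAG6 complex and the tail-anchored protein targeting factors, which triage membrane proteins in the cytosol as ubiquilins do. Of the 14 tested, 4 were lower and 0 higher with gag-pol, 0 were called with gag (DESeq2 0, and 2 at an unadjusted p under 0.05) and 2 were lower and 0 higher with NC. DESeq2 called 5 lower with gag-pol and 4 lower with NC, and 0 higher in both. Over the whole table DESeq2 called 2332 of 15447 genes with gag-pol and 2395 of 15006 with NC, in either direction. The group medians were -0.05, -0.06 and -0.03 on the log2 scale, against -0.0014, 0.0027 and 0.0040 over all genes. Of all genes, edgeR called 5.48% higher and 5.83% lower with gag-pol, 0.699% and 0.384% with gag, and 6.04% and 5.15% with NC. *ASNA1*, the targeting ATPase also called GET3, fell by 0.42 with gag-pol (SE 0.091, adjusted p = 0.005 in edgeR) and by 0.50 with NC (SE 0.091, adjusted p = 0.00229). *GET4*, which joins it to BAG6, fell by 0.30 with gag-pol (SE 0.071, adjusted p = 0.00814 in edgeR) and by 0.36 with NC (SE 0.071, adjusted p = 0.00376). *BAG1*, a co-chaperone of HSP70, fell by 0.34 with gag-pol (SE 0.110, adjusted p = 0.0457 in edgeR). With NC its fall of 0.32 was short of the threshold (SE 0.110, adjusted p = 0.0646).

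Of 8 other shuttle factors and proteasomal ubiquitin receptors tested, 1 was called with gag-pol, near the 11.3% of all genes. It was *SQSTM1*, which encodes the autophagy receptor p62 and fell by 0.25 (SE 0.078, adjusted p = 0.0415 in edgeR). With gag and with NC 0 of 8 were called (DESeq2 0 and 0; 0 and 1 at an unadjusted p under 0.05). Against gag, 1 of 8 was called with gag-pol and 1 of 8 with NC, beside 6.46% and 16.9% of all genes. In both it was *SQSTM1*, lower by 0.32 with gag-pol (adjusted p = 0.0165 in edgeR) and by 0.25 with NC (adjusted p = 0.0295). Its values without gag replicate 2 are not given here.

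In the family of *USP9X*, 47 USP deubiquitinase genes were tested. With gag-pol 2 were higher and 4 lower, with gag 1 was higher, and with NC 1 was higher and 5 lower. These are 6, 1 and 6 of 47, beside the 11.3%, 1.08% and 11.2% of all genes. *USP36*, a nucleolar enzyme, rose by 0.56 with gag-pol (SE 0.080, adjusted p = 0.000195 in edgeR) and by 0.46 with gag (SE 0.080, adjusted p = 0.00373). *USP13* rose by 0.32 with gag-pol and 0.36 with NC (adjusted p = 0.0372 and 0.022 in edgeR). *USP44* fell by 0.47 and 0.41 in the same comparisons (adjusted p = 0.0168 and 0.038 in edgeR). *USP39*, a splicing protein, fell by 0.42 with gag-pol and 0.27 with NC (adjusted p = 0.00196 and 0.0322 in edgeR). *USP53* fell by 0.33 with NC (adjusted p = 0.0487 in edgeR). The family medians were -0.0025, 0.05 and -0.04 for the 3 constructs in that order.

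**Figure D5:**
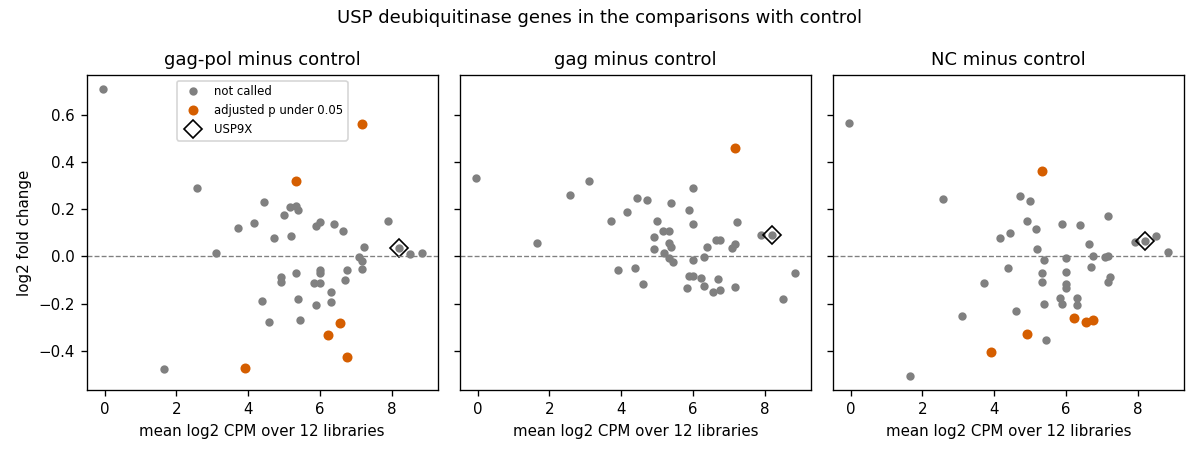
Log2 fold change against control of the 47 tested USP genes by their mean log2 CPM, for gag-pol, gag and NC (orange, adjusted p under 0.05 in edgeR; diamond, *USP9X*). *USP9X* lies near 0 in each panel, at 0.03, 0.09 and 0.06, and the highest called point with gag-pol is *USP36* at 0.56.

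Transcripts of 7 proteins described as USP9X substrates, among them the survival factor *MCL1*, *SMAD4* and *CTNNB1* (beta-catenin), were called in 0 of 7 cases against control with each construct in edgeR, beside 11.3%, 1.08% and 11.2% of all genes. With so few genes, a count of 0 is near those shares. At an unadjusted p under 0.05 there were 3, 3 and 2, a cut at which the share of all genes was not counted. DESeq2 called 0, 0 and 1. Their median log2 fold changes were -0.08, -0.0022 and -0.06.

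A list drawn up for PEG10 turnover held 6 genes: *UBQLN2*, *USP9X*, the ubiquitin ligase *UBE3A* and the *RTL8* genes *FAM127A*, *FAM127B* and *FAM127C*. The *RTL8* genes are domesticated gag genes, and whether they act in PEG10 turnover was not examined. Of the 6 genes, 0 were called against control with any construct in edgeR, beside the same 11.3%, 1.08% and 11.2% of all genes. At an unadjusted p under 0.05 the numbers for gag-pol, gag and NC were 2, 0 and 1, again without the share of all genes at that cut. DESeq2 called 0, 0 and 1. Against gag, 1 of 6 was higher with gag-pol (*UBQLN2*), beside 3.03% of all genes, and 3 of 6 were higher with NC, beside 8.76%. Those higher with NC were *UBQLN2*, *FAM127B* at 0.26 (adjusted p = 0.0189 in edgeR) and *FAM127A* at 0.28 (adjusted p = 0.0322). Both counts repeat the *UBQLN2* calls given above, and the list was chosen with earlier results of these data known, so they are a description only. *UBE3A* differed from gag by -0.02 with gag-pol and -0.09 with NC (adjusted p = 0.926 and 0.479 in edgeR). The *RTL8* genes are near-identical copies, so the division of counts among them is uncertain.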

How the data were processed

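Poly(A) RNA from 12 libraries was sequenced as read pairs. The authors mapped reads to GRCh38.p13 with STAR 2.7.3, and used SAMtools 1.8 and featureCounts to deposit raw counts per gene symbol. The annotation, strand setting and handling of multiply mapped reads are not given in the sources used here. Of counts from 1 to 20, 62.9% were even, and whether both mates of a pair were counted was not tested.

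Counts were analysed with edgeR 4.0.16 (limma 3.58.1, R 4.3.3): TMM factors (0.94 to 1.06), a filter at a minimum count of 10 and minimum total of 15 by group, and 1 robust quasi-likelihood fit of the 12 libraries, in which construct and replicate number were the terms (6 residual degrees of freedom). P-values were adjusted by Benjamini-Hochberg over 17176 genes, with 0.05 as the threshold, and fold changes are on the log2 scale. The study modelled harvest date and construct. The series design names 3 independent passages, which the replicate numbers were read as. The 18 pairs of libraries with the same number correlated at 0.25 to 0.80 after the construct means were removed, and the 36 other pairs at -0.75 to 0.14. That construct differences are measured across cultures rests on this reading of the labels.

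Gene models, lengths and sequences were taken from GRCh38 with the annotation of GENCODE release 44 (Biopython 1.88, Python 3.11.15, pandas 2.3.3, numpy 2.4.6, matplotlib 3.10.9). The fit was also run on counts simulated with known changes, and the outcome of that run is not given here. Some sequences and 1 further gene are not reported here. The genes and lists were chosen with earlier results of these data known. Named genes are the 4 genes, *PEG10*, the marker genes and, whatever its level, *UBQLNL*. From each list the called genes with the 2 largest rises and 2 largest falls against control are named. For each of the 4 genes the 3 genes most correlated with it are named. Genes picked by these last 2 rules have a mean log2 CPM of at least 1. *SQSTM1* against gag, *GET4* with gag-pol, *BAG1* and *USP39* with NC, *UBE3A* and the *RTL8* genes are outside these rules and were added with their values in view. Older symbols were used where the table has them, and 1 listed gene (*USP41*) had no match. Alternatives were DESeq2 1.42.0, other scaling factors, *PEG10* left out, other filters, no robust estimation, no replicate term, only the libraries compared, each library or replicate number left out, and other gene lengths. Standard errors and intervals come from the fit, with dispersion moderated across genes. They cover the spread left after construct and replicate number, and for construct differences leave out the spread between replicate numbers.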

Additional observations from a re-analysis of the deposited data

How the results depend on the processing

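Without the replicate term (no replicate block), 0 of the 4 genes were called in any comparison, *UBQLN2* included (0.25 for gag-pol against gag, 0.23 for NC against gag, 0.19 for the mean of gag-pol and NC against that of gag and control, adjusted p = 0.805, 0.624 and 0.46 in edgeR), and 0 to 3 genes of the whole table were called per comparison. Without robust estimation *UBQLN2* was lost between gag-pol and gag and in the test of any construct (0 genes called; adjusted p = 0.0564 and 0.0563), and with only the 6 libraries compared it was lost between NC and gag (0 called; 0.0683). Its adjusted p reached 0.05 with upper-quartile factors between gag-pol and gag. On leaving out 1 library or replicate number, the number of the 4 genes called ran from 0 to 1 in each of these comparisons, with log2 differences of *UBQLN2* from 0.21 to 0.31, 0.20 to 0.29 and 0.15 to 0.25. In the test of any construct it was lost in 11 of 15 leave-outs (adjusted p 0.0415 to 0.294), and without replicate 3 the 1 gene called was *UBQLN1* (0.0169). Replicate number called 1 to 2 genes: without replicate 1 *USP9X* was lost (0.951), and without replicate 3 *UBQLN2* (0.604).

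Small differences that did not pass the threshold changed sign. *UBQLN1* between NC and control was -0.0034 with upper-quartile factors and -2.3e-05 with only the libraries compared, and -0.073 to 0.12 over leave-outs. *USP9X* in the mean of gag-pol and NC against that of gag and control was -0.0063 with upper-quartile factors, -0.0049 with at least 10 counts in every library and -0.0063 without the replicate term, and -0.042 to 0.072 over leave-outs. Leave-outs also reversed *USP9X* in gag-pol against control (-0.053 to 0.10), NC against control (-0.027 to 0.22), gag-pol against gag (-0.14 to 0.036), NC against gag (-0.12 to 0.11) and NC against gag-pol (-0.063 to 0.20), *UBQLN4* in NC against control (-0.025 to 0.11) and NC against gag (-0.075 to 0.074), *UBQLN2* in NC against gag-pol (-0.068 to 0.011), and *UBQLN1* in the mean of gag-pol and NC against that of gag and control (-0.026 to 0.11). The share of *UBQLN2* in the ubiquilin level was 26.2% with all exons, 24.4% with the longest transcript and 21.3% with the canonical transcript. Numbers of genes called over the whole table moved by more than 1.5 times between gag and control (186, against 344 with only the libraries compared, 373 without the filter and 438 in DESeq2), between gag-pol and control (1942 against 1131 with only the libraries compared), between gag-pol and gag (1109 against 2628) and between NC and gag-pol (15, against 8 with upper-quartile factors, 9 with at least 10 counts in every library, 25 without robust estimation, 44 with only the libraries compared, 129 without the filter and 213 in DESeq2). Leave-outs of 1 library or replicate number moved them further, and with them the shares of all genes given beside the results: from 422 to 2445 for gag-pol against control (737 without control replicate 3), 22 to 731 for gag against control (33 without gag replicate 1), 367 (without control replicate 3) to 2369 for NC against control (1922 in all libraries), 12 to 1849 for gag-pol against gag (122 without gag replicate 1, 130 without gag-pol replicate 3), 342 to 3556 for NC against gag (2898 in all libraries, 940 without gag replicate 1), 0 (without NC replicate 1) to 533 for NC against gag-pol, 2222 to 4074 for the mean of gag-pol and NC against that of gag and control (4244 in all libraries), 636 to 3590 for any construct (3538 in all libraries) and 3674 to 9371 for replicate number (9074 in all libraries).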
